A study of Rattus norvegicus with 30 samples.

Results

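RNA sequencing of REF cells, a line of rat embryonic fibroblasts, was used to compare cells kept without serum for 3 days with cells kept without serum for 2 days. The comparison rested on 6 of the 30 libraries of a starvation series, 3 biological replicates for each of the 2 days, and took in every gene of the table. Of its 17353 gene symbols, 8940 had a mean of at least 1 FPKM over the 30 libraries (FPKM counts sequenced fragments, scaled by the length of the transcript and the size of the library) and were tested. All 10 groups of the series, unstarved control cells and cells starved for 2, 3, 4, 6, 8, 10, 12, 14 or 16 days, came from this single line, which is labelled as carrying no transformation, and no treatment other than the removal of serum is named for them. The labels do not say whether the replicates were separate cultures, so the p-values measure the spread between libraries. That spread was estimated within the 10 groups over all 30 libraries, not from these 6 alone.

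Serum carries the growth factors and lysophospholipids that keep cultured fibroblasts dividing, and without it they leave the cell cycle for a reversible arrest called quiescence. Fibroblasts also make the collagen matrix of connective tissue, and they can take on contractile features through the transcription factor SRF, whose cofactors follow the state of the actin cytoskeleton. YAP, a cofactor of the TEAD factors, is likewise known to respond to cell density, tension and serum lipids. The endoplasmic reticulum folds what such cells secrete, and its chaperones are induced when unfolded protein builds up there.

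The 6 libraries resembled each other closely. Pearson correlations of log2(FPKM + 1) across genes were 0.9836 to 0.9913 within a day and 0.9681 to 0.9822 between the days; genes are not independent replicates. The first principal component, with 45.6% of the variance, separated the days, and the second, with 21.1%, set replicate 1 of each day apart from replicates 2 and 3. Relative depth was read as the most common FPKM ratio of day 2 replicate 1 to each library, in genes averaging under 0.2 FPKM. It placed day 3 replicate 1 at 0.899 of day 2 replicate 1 and the other 4 at 0.414 to 0.533 of it. Such a ratio also carries any scaling between libraries, and absolute depth is unknown. FPKM summed to between 582501 in day 3 replicate 1 and 714474 in day 3 replicate 3, where short RNA genes took 6.91% of the sum against 0.132% to 2.47% in the other 5. Of 19 fibroblast markers, 15 were at 1 FPKM or more on average, and Col1a2, Fap and Twist2 were listed at 0 in every library. An exact 0 in such a table can be a failed estimate. All 14 macrophage markers were below 1 FPKM on average, as were 10 of 11 adipocyte, 10 of 12 endothelial, 11 of 12 epithelial and 9 of 14 neural and glial markers. The neural and glial list summed to 165.1 to 171.6 FPKM at day 2 and 119.6 to 127.8 FPKM at day 3. Most of that sum was Stmn2 and Nes, with means of 117 and 41.8 FPKM at day 2 and 93.6 and 19.1 FPKM at day 3. Rbfox3, Snap25, Sox10, Nefl and Nefm were listed at 0 in all 6 libraries. In bulk RNA, fewer cells of a type and less RNA per cell cannot be told apart.

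Between day 2 and day 3, 700 genes rose and 767 fell, 7.83% and 8.58% of the genes tested (limma, Benjamini-Hochberg adjusted p under 0.05). Most steps were small: 67 rises and 68 falls reached 2-fold, while 442 rises and 523 falls stayed under 1.5-fold. The median change was 0.50 among the rises and -0.48 among the falls on the log2(FPKM + 1) scale, which understates the change of low genes, and -0.00071 over all genes tested. All folds below are on this scale. The 3 libraries of one day lay entirely above the 3 of the other in 2995 genes (33.5%), called or not, which is the background for groups said below not to overlap. With each library rescaled to the same sum, 806 genes were higher and 510 lower, and with short RNA genes left out before rescaling the split was 1097 to 516, so the balance of directions depended on the scaling while the median of all genes moved by at most 0.0773. Without day 3 replicate 1, 541 genes were higher and 494 lower, and a fit of the 6 libraries alone gave 461 and 492.

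**Figure D1:**
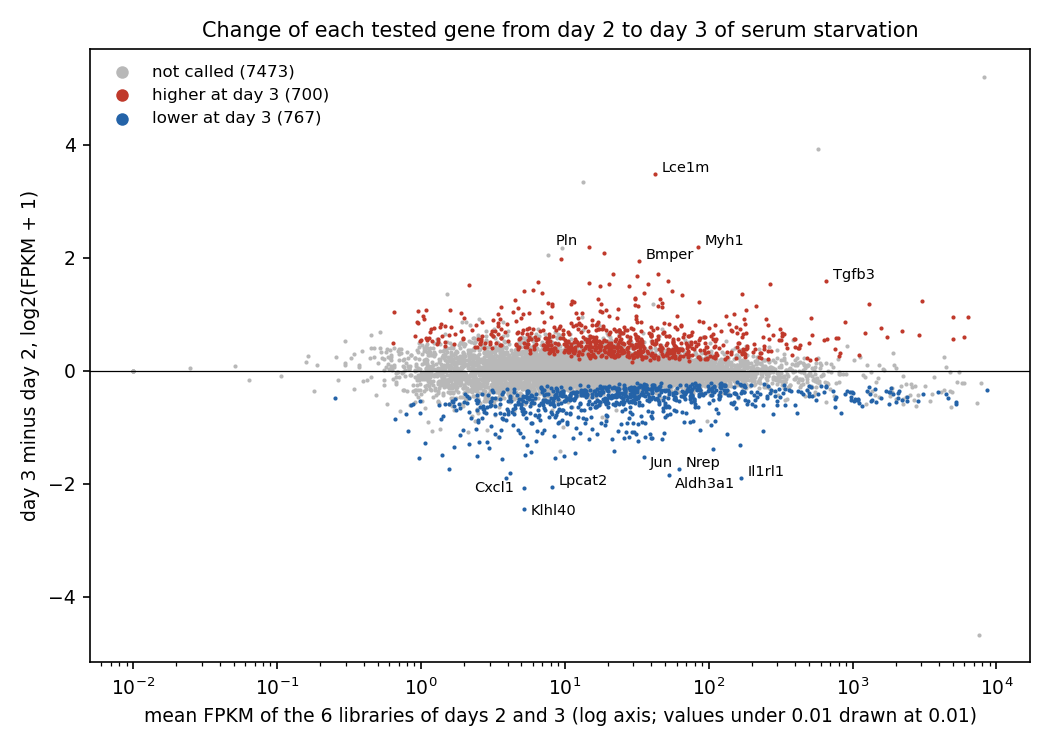
Each point is 1 of the 8940 genes tested; the x axis is its mean FPKM over the 6 libraries (log axis) and the y axis its difference between day 3 and day 2 in log2(FPKM + 1). The 700 genes called higher and 767 called lower form similar bands on either side of 0, and Lce1m (3.48) and Klhl40 (-2.44) are the extremes among the labelled genes; uncalled points far from 0, microRNA genes among them, rest on single libraries or on values of 0.

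The 12 largest rises included Pln, Myh1 and Bves, genes best known from muscle. Lce1m, a member of the late cornified envelope family, was at 5.12, 5.92 and 7.7 FPKM in the day 2 libraries (replicates 1, 2 and 3, as in all such lists below) and at 76.7, 82.5 and 77.6 FPKM at day 3, an 11.1-fold rise (log2 difference 3.48, SE 0.31, limma adjusted p = 8.86e-09). Pln encodes phospholamban, the inhibitor of the calcium pump of the sarcoplasmic reticulum. It was at 4.96, 5.32 and 3.76 FPKM at day 2 and 27.5, 24.1 and 22.9 at day 3, 4.57-fold higher (log2 difference 2.19, SE 0.12, limma adjusted p = 2.71e-12). Myh1, a fast skeletal myosin heavy chain, stood at 23.5, 38.9 and 28.8 FPKM and then at 131, 135 and 152, 4.56-fold higher (log2 difference 2.19, SE 0.15, limma adjusted p = 7.53e-11). In each of these genes the groups did not overlap, which the rule for naming the largest rises and falls required. Reads of Myh1 and of Lce1m can be shared with near-identical family members, and how the authors' counting split such reads is not given in the sources used here. Lims2, a LIM protein of focal adhesions, rose 3.19-fold, from 14.7 ± 0.40 to 49.2 ± 3.01 FPKM (mean ± SD, n = 3). Bves, a cAMP-binding membrane protein of heart and skeletal muscle, rose 3.01-fold, from 25.7 ± 1.82 to 79.4 ± 1.92 FPKM.

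Muscle identity genes were called in both directions. Among 11 tested members of the skeletal muscle list, Myh1 and Myh2 rose and Myod1 and Cdh15 fell (18.2% each way). The list median of 0.14 changed sign between libraries left out (-0.09 without day 3 replicate 3 to 0.17 without day 3 replicate 2). Myh2 was low on both days, with means of 0.264 FPKM at day 2 and 1.65 FPKM at day 3. Myod1, the myogenic master regulator, was at 3.06, 4.61 and 2.85 FPKM at day 2 and 1.75, 2.05 and 0.575 at day 3, and its call was lost without day 2 replicate 2 (limma adjusted p = 0.0625) and without day 3 replicate 3 (0.0942). Cdh15, the muscle cadherin, lost its call without day 2 replicate 2 (limma adjusted p = 0.0518) and without day 3 replicate 1 (0.0834). Myog, Myf5, Actc1, Myl1 and Tnni1 were listed at 0 in all 6 libraries. The summed level of the 25 listed genes was 358.7 to 372.2 FPKM at day 2 and 404.8 to 503.5 FPKM at day 3. This sum includes Myh1, whose mean went from 30.4 to 139 FPKM, so it does not describe the list as a whole. Other abundant members moved both ways, the mean of Tnnt2 from 141 to 107 FPKM and that of Tnnc1 from 139 to 161 FPKM.

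The 12 largest rises also included the secreted signalling proteins Tgfb3, Bmper and Sema3d. Tgfb3, a TGF-beta ligand, was at 311, 347 and 323 FPKM at day 2 and 988, 924 and 1048 at day 3, a 3.01-fold rise (log2 difference 1.59, SE 0.09, limma adjusted p = 2.71e-12). The other ligands of this family were not higher: Tgfb1 fell by 0.59 on the log2 scale, a call that was lost when libraries were rescaled to the same sum (limma adjusted p = 0.0623), and Tgfb2 differed by -0.11 (limma adjusted p = 0.599). Bmper, a secreted regulator that binds BMPs, was at 10.9, 15.9 and 12.6 FPKM and then 51.3, 49 and 57.4, 3.82-fold higher. Sema3d, a secreted semaphorin, went from 6.27, 10.9 and 12.2 to 32, 34 and 34.2 FPKM, 3.29-fold higher. All 3 genes had their lowest day 3 library above their highest day 2 library, as the rule for the largest rises required. Rasl11b, a Ras-like small GTPase, agreed closely within each day, at 6.61, 6.63 and 6.57 FPKM at day 2 and 29.6, 31 and 32.5 at day 3, 4.21-fold higher (log2 difference 2.08, SE 0.11, limma adjusted p = 7.92e-13). Rassf7, a protein with a Ras association domain, was at 4.29, 4.65 and 1.4 FPKM at day 2 and 16.3, 14.5 and 15.1 at day 3. Mcpt1, a mast cell protease with close family copies, rose 3.28-fold and Flvcr2, a membrane transporter, 2.97-fold.

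Smooth muscle actin and other contractile genes rose as a group. Of 22 tested members of a list of smooth muscle and SRF target genes, 14 rose (63.6%, against 7.83% of all genes) and none fell, and the list median was 0.59 against -0.00071 over all genes. Srf, itself among the 14 risen members, encodes the factor for which the list is named, whose binding was not measured. It was at 36, 37.4 and 37.2 FPKM at day 2 and 58.9, 57.5 and 60.2 at day 3, 1.58-fold higher (log2 difference 0.66, SE 0.05, limma adjusted p = 1.52e-09). The promoter of Srf is shown because Srf was the single matched risen member with a CArG box, the SRF binding motif (capitals), in the RefSeq promoter window of 250 bases before to 50 after the start. Only exact matches to CCWWWWWWGG (W is A or T) were counted. Looser forms of the box and sites outside the window were not searched, so a gene without a match may still have one. Of the 14 risen genes, 9 were matched to a promoter by symbol, and a CArG box on either strand was in 1 of these, in 2 of 8 matched members that were not called (Actg1 and Fhl2), and in 548 of 33469 promoters (1.64%). The 200 bases before the start (GRCr8 build, chr9:21923876-21924075, plus strand) hold it at positions -81 and -61 from the start.
Srf: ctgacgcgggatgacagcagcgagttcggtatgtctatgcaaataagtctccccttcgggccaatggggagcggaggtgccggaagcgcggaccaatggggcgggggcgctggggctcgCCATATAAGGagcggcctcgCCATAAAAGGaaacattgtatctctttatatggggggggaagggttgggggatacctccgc

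Several abundant genes of actin and its contractile partners carried this pattern at high levels. Acta2, smooth muscle actin and a marker of myofibroblasts, was at 3211, 3735 and 3344 FPKM at day 2 and 5873, 6771 and 7183 at day 3, 1.92-fold higher (log2 difference 0.94, SE 0.13, limma adjusted p = 4.69e-06). Tpm1, the actin-binding tropomyosin, was at 922, 967 and 949.5 and then 1462, 1489.6 and 1565 FPKM. Myl9, the regulatory light chain of smooth muscle myosin, was at 650.1, 659.8 and 572 and then 1104, 1131 and 1179 FPKM. In all 3 genes every day 3 library exceeded every day 2 library. Lmod1, the actin nucleator leiomodin of smooth muscle, rose 1.75-fold (log2 difference 0.81, SE 0.08). Genes named here and below beyond the fixed rule were chosen after their values were seen: in this list, Cald1 (caldesmon) rose by 1.18, Myh11 (smooth muscle myosin heavy chain) by 0.92, Cnn1 (calponin) by 0.67, Vcl (vinculin) by 0.66, Actb (cytoplasmic beta actin) by 0.60 and Tagln (transgelin) by 0.57 on the log2 scale. Myh11 was still low, at 1.73, 1.71 and 1.58 FPKM at day 3. Cald1 was lowest in day 2 replicate 1 (575 FPKM against 939 and 917), and its adjusted p without that library was 0.00187 (limma). Flna (filamin A) rose by 0.58, a call lost without day 2 replicate 1 (limma adjusted p = 0.0595). Actg1, the other cytoplasmic actin, differed by 0.44 (limma adjusted p = 0.169), and Vim (vimentin), Zyx (zyxin) and Smtn (smoothelin) at -0.02, -0.25 and -0.08 did not pass either.

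**Figure D2:**
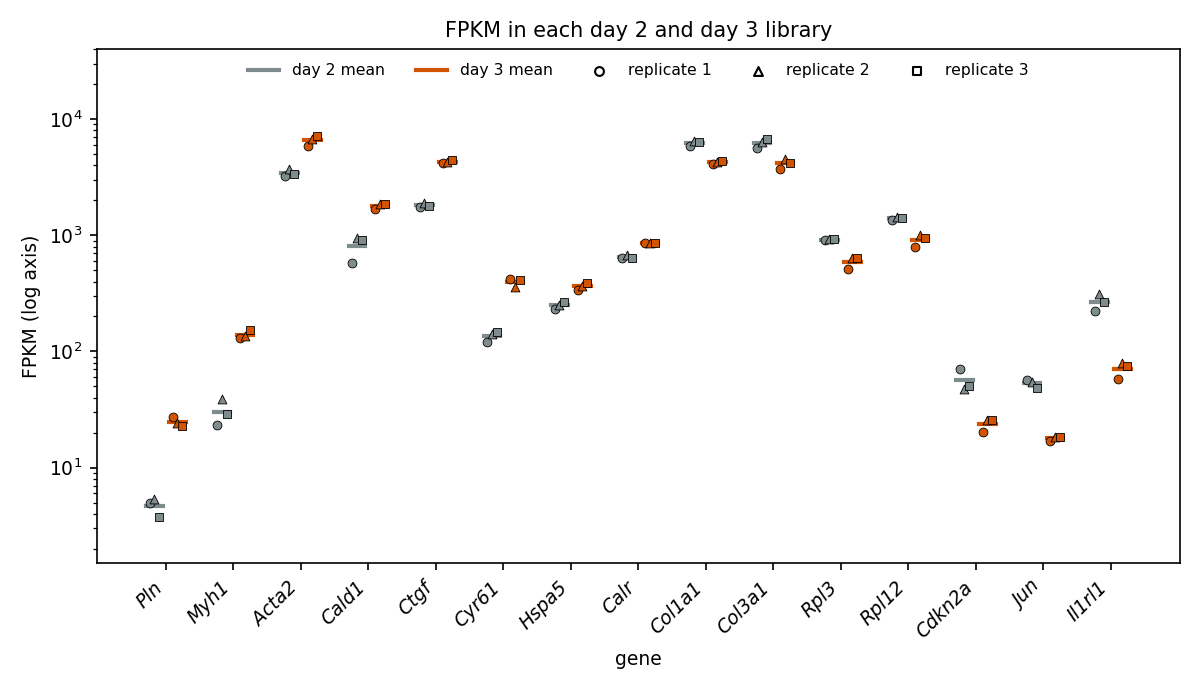
FPKM of 15 genes in each library (log axis): gray symbols are day 2, orange symbols day 3, symbol shapes are replicates 1 to 3 and bars are group means. Contractile and YAP genes (Pln to Cyr61) and the chaperones Hspa5 and Calr sit higher at day 3 in every library, and the collagens, ribosomal proteins, Cdkn2a, Jun and Il1rl1 sit lower.

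The secreted matricellular targets of YAP rose, and the list as a whole was mixed. Of 16 tested YAP and TEAD targets, 6 rose (37.5%) and 2 fell (12.5%), with a median of 0.17. Cyr61 (also Ccn1) and Ctgf (also Ccn2), secreted matricellular proteins, were the leading members. Cyr61 was at 120.1, 142 and 148 FPKM at day 2 and 419.6, 361 and 416 at day 3, 2.91-fold higher (log2 difference 1.54, SE 0.09, limma adjusted p = 4.14e-12). Ctgf was at 1759.9, 1907 and 1804 FPKM and then 4191, 4258 and 4442, 2.36-fold higher (log2 difference 1.24, SE 0.08, limma adjusted p = 1.03e-11). Within each day the libraries of Ctgf agreed within 129.9 FPKM (SD), while the day 2 and day 3 means were 1823 and 4297. The promoters of these genes are printed because they hold GGAATG, the core of the TEAD binding motif, in capitals (CATTCC where it lies on the other strand). In 5 risen members matched to a RefSeq promoter, GGAATG on either strand was found in 3 (Cyr61, Ctgf and Amotl2), against 2 of 6 matched members that were not called and 4749 of 33469 promoters (14.2%). In the 200 bases before the start of Cyr61 (GRCr8, chr2:237225690-237225889, minus strand) it lies at position -113, and in those of Ctgf (GRCr8, chr1:22624615-22624814, minus strand) at -166, -101 and -92.
Cyr61: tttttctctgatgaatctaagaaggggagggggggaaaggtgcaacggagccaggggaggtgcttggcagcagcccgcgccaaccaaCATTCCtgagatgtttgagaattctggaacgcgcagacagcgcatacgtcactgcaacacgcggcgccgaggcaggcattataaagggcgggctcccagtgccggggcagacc
Ctgf: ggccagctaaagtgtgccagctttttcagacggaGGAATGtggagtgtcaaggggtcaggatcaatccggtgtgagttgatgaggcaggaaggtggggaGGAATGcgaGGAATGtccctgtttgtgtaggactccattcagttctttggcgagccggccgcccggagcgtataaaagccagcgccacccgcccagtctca

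F3, tissue factor, the cell surface starter of blood clotting, rose from 64 ± 3.31 to 118 ± 11.2 FPKM, and Amotl2, an angiomotin that binds YAP, from 211 ± 10.3 to 276 ± 5.21 FPKM. Lats2, the kinase that inhibits YAP, rose by 0.61 and Crim1, a membrane protein that binds BMPs, by 0.81, the latter call lost without day 2 replicate 1 (limma adjusted p = 0.0773). Ankrd1, also a common YAP target, went the other way, from 80.6, 77.9 and 83.5 to 53.3, 62.2 and 55 FPKM, and Axl, a receptor tyrosine kinase, fell by 0.43 on the log2 scale.

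Among 16 TGF-beta and BMP target genes, 5 rose and 3 fell (31.3% and 18.8%), with a median of 0.03 (0.04 without day 2 replicate 2 to 0.08 without day 2 replicate 1), and leaving out day 2 replicate 1, day 2 replicate 3, day 3 replicate 1 or day 3 replicate 3 left 3 risen genes. Id4 and Id2, inhibitors of basic helix-loop-helix factors, rose 2.22-fold and 1.57-fold. Id1, their relative, was at 26.9, 22.4 and 18.2 and 21.5, 21.4 and 25.7 FPKM, with overlapping groups (log2 difference 0.04, limma adjusted p = 0.928). Hes1, a repressor induced by Notch that is tied to the reversibility of quiescence in fibroblasts, fell from 36.4, 40.6 and 40 FPKM to 15.1, 15.9 and 19.5, 2.25-fold lower (log2 difference -1.17, SE 0.16, limma adjusted p = 6.79e-06).

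Every called gene among the chaperones of the endoplasmic reticulum rose, by modest amounts. Of 25 tested genes of this list, 11 rose (44%) and none fell, and the median was 0.31 (0.20 without day 2 replicate 1 to 0.39 without day 2 replicate 2); a fit of the 6 libraries alone called 7. Hspa5 (BiP), the main luminal chaperone, was at 233, 249.7 and 265 FPKM at day 2 and 338, 365 and 386 at day 3 (log2 difference 0.54, SE 0.08, limma adjusted p = 3.59e-05). Hsp90b1 (GRP94) was at 259, 309.9 and 295 FPKM and then 383, 397 and 421 (log2 difference 0.48, SE 0.07, limma adjusted p = 1.83e-05). Calr, the calcium-binding lectin chaperone calreticulin, was at 641, 683 and 643 and then 852, 859 and 862 FPKM (log2 difference 0.39, SE 0.06, limma adjusted p = 2.38e-05). Each of the 3 genes was higher in every day 3 library than in any day 2 library. Pdia6, a disulfide isomerase, rose 1.38-fold, Dnajb11, a cochaperone of BiP, 1.41-fold, and Sdf2l1 and Hyou1, which assist BiP, by 0.62 and 0.46 on the log2 scale. The signalling side of the list did not pass: Xbp1, whose spliced form is the transcription factor of this response, was at 66.6, 64.2 and 69.1 and 65.6, 79.9 and 68.8 FPKM, a log2 difference of 0.09 (limma adjusted p = 0.468), and Ddit3 (CHOP) and Atf4, transcription factors of the stress response, differed by 0.02 (limma adjusted p = 0.939) and -0.03 (0.825). Gene FPKM do not show splicing.

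The promoters of Hspa5 and Hsp90b1 are printed because they carry the motif for which this gene group is known, the endoplasmic reticulum stress element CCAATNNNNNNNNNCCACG (capitals, on either strand). It was in 5 of the 10 risen genes matched to a RefSeq promoter (Hsp90b1, Calr, Hspa5, Creld2 and Canx; Canx was not called without day 2 replicate 1, limma adjusted p = 0.186, nor without any 1 library of day 3), in 2 of 9 matched members not called (Dnajc3 and Xbp1), and in 22 of 33469 promoters (0.0657%). A second, shorter motif, TGACGTGG, was in 1 of the 10 (Hyou1) and in 199 of all promoters (0.595%). The 200 bases before the start of Hspa5 (GRCr8, chr3:38452816-38453015, plus strand) hold 1 stress element, at -43, and those of Hsp90b1 (GRCr8, chr7:23012294-23012493, minus strand) hold 2, at -176 and -72, the second on the other strand.
Hspa5: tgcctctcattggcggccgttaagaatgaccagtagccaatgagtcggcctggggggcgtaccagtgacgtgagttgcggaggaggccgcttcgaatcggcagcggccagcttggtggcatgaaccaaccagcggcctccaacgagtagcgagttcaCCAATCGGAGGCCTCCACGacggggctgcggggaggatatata
Hsp90b1: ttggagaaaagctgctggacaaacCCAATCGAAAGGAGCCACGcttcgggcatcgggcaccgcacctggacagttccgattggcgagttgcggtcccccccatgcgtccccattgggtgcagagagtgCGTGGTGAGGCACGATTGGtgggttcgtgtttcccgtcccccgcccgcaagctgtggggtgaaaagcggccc

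Chaperones outside the endoplasmic reticulum held few called genes in either direction. Of 26 tested genes, 4 rose (15.4%, against 7.83% of all genes) and 3 fell (11.5%, against 8.58%). The small heat shock proteins Cryab and Hspb1 rose 1.47-fold and 1.47-fold, and the mitochondrial chaperonin Hspd1 1.24-fold. Bag3, a cochaperone of selective autophagy, fell 1.36-fold; without day 2 replicate 1, day 2 replicate 3 or day 3 replicate 1 a single gene of the list fell.

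Both main fibrillar collagens were among the matrix genes that fell, while a few adhesive glycoproteins rose. Of 26 tested collagen and matrix genes, 13 fell (50%, against 8.58% of all genes) and 4 rose (15.4%, against 7.83%). The median was -0.35 (-0.50 without day 2 replicate 1 to -0.23 without day 2 replicate 3, and -0.15 over members averaging at least 5 FPKM). Without day 2 replicate 1, 2 rose. Col1a1, a chain of type I collagen, was at 5914, 6503 and 6332 FPKM at day 2 and 4113, 4288 and 4322 at day 3, 1.47-fold lower (log2 difference -0.56, SE 0.13, limma adjusted p = 0.00287). Col3a1, the chain of type III collagen, was at 5674, 6338 and 6731 and then 3725, 4503 and 4232 FPKM, 1.5-fold lower (log2 difference -0.59, SE 0.07, limma adjusted p = 2.11e-06). These were among the most abundant transcripts of the cells on both days, and their groups did not overlap. Postn, the matricellular protein periostin, fell from 289.6, 322 and 350.2 to 137, 166 and 156 FPKM, and Vcan, the proteoglycan versican, from 89.9, 104 and 108 to 50.3, 57.9 and 53.9. Col18a1, the basement membrane collagen that yields endostatin, fell 1.55-fold, and Tgfbi, a secreted adhesion protein, fell from 1.94 to 0.214 FPKM. In the other direction, Thbs1, thrombospondin, went from 3366, 4752 and 5009 to 8016, 8439 and 8469 FPKM (log2 difference 0.95, SE 0.15, limma adjusted p = 6.57e-05), and Mfap5, a microfibril protein, rose 1.41-fold. Fn1, fibronectin, rose by 0.63, but not without day 2 replicate 1 (limma adjusted p = 0.0975), its lowest library. The fibroblast marker list, which includes Col1a1, Col3a1 and Postn, summed to 32104 to 37457 FPKM at day 2 and 26098 to 31721 FPKM at day 3. Of its 13 tested members, 5 were lower (38.5%) and 2 higher (15.4%).

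Both plasminogen activators fell. Plat, tissue plasminogen activator, was at 43.3, 47.2 and 47.3 FPKM at day 2 and 16.9, 20.6 and 19.3 at day 3, 2.36-fold lower (log2 difference -1.24, SE 0.12, limma adjusted p = 2.04e-08), and Plau, urokinase, was at 35.4, 36.6 and 38.3 and then 16.9, 18.1 and 15.5 FPKM, 2.12-fold lower (log2 difference -1.08, SE 0.14, limma adjusted p = 2.06e-06). Of 14 matrix proteases and inhibitors, 6 fell (42.9%) and 2 rose (14.3%), with 1 risen without day 2 replicate 1. Mmp19 fell 1.39-fold and Mmp14, a membrane collagenase, by 0.37 on the log2 scale.

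Cytosolic ribosomal protein genes were lower throughout. All 72 tested members had a negative difference, 35 of them fell (48.6%) and none rose, with a median of -0.44. Rpl3 was at 903, 927 and 928 FPKM at day 2 and 512, 637 and 636 at day 3, 1.55-fold lower (log2 difference -0.63, SE 0.09, limma adjusted p = 8.43e-06), and Rpl12 at 1350.4, 1435 and 1419 and then 790.1, 1002 and 943 FPKM, 1.54-fold lower. Both are proteins of the large ribosomal subunit, and in both the lowest value was that of day 3 replicate 1. The same library was lowest over the list: its mean deviation from the day 2 means was -0.68, against -0.31 in each of replicates 2 and 3. Without it 19 genes fell and the median was -0.30, it was -0.27 with quantile normalization, and 20 genes fell in a fit of the 6 libraries alone. Its FPKM sum was also the lowest of the 6, and the part of library differences in this result was not tested. Ribosomal protein genes have many processed pseudogenes that can share their reads.

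Other parts of the biosynthetic machinery held few called genes. Of 38 ribosome biogenesis genes, 5 fell (13.2%) and none rose, with 3, 3 and 2 falling without day 2 replicate 2, day 2 replicate 3 and day 3 replicate 1; Npm1, the nucleolar chaperone nucleophosmin, fell 1.27-fold and Pes1, a factor of large subunit assembly, 1.29-fold. Of 41 mitochondrial ribosomal protein genes 3 fell, led by Mrpl10 (1.38-fold). That was 7.32%, near the 8.58% of all genes, and 1 fell without day 2 replicate 1 or without day 3 replicate 3. None of 31 proteasome subunits and none of 21 genes of the tricarboxylic acid cycle was called, at medians of -0.07 and -0.03 that changed sign when single libraries were left out (-0.12 without day 3 replicate 2 to 0.0043 without day 3 replicate 1 for the first, -0.08 without day 3 replicate 2 to 0.03 without day 3 replicate 1 for the second). Of 46 nuclear-encoded genes of the respiratory chain and ATP synthase 2 fell (4.35%), with a median of -0.13 (-0.16 without day 2 replicate 3 to -0.08 without day 3 replicate 1). A single one, Ndufs4 of complex I (1.25-fold lower), kept its call when any 1 library was left out.

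Genes of mitosis were slightly higher at day 3 and far below their level in unstarved cells. Of 37 tested mitosis genes, 11 rose (29.7%) and none fell, 36 of 37 differences were positive, and the median was 0.51, against a median difference of day 2 from unstarved cells of -4.44. Ccnb2, cyclin B2, was at 132 ± 7.42 FPKM in unstarved cells, 2.43, 1.78 and 1.34 FPKM in the day 2 libraries and 3.55, 7.11 and 5.39 at day 3, that is 1.4% and 4.05% of the unstarved mean. Kif20a, a mitotic kinesin, was at 3.26, 2.81 and 3.18 and then 5.97, 6.55 and 7.81 FPKM, 2.9% and 6.39% of the unstarved mean (log2 difference 0.93, SE 0.23, limma adjusted p = 0.0066). Ccnb2 and Kif20a did not overlap between the days. Mki67, the proliferation marker Ki-67, was at 0.966, 1.79 and 1.75 and 2.22, 2.32 and 2.7 FPKM and did not pass (limma adjusted p = 0.152). The count rested on low values: it was 2 with a pseudocount of 0.1 FPKM in place of 1, and leaving out 1 library gave 4 to 9 (7, 4 and 7 without day 2 replicates 1, 2 and 3, and 9, 5 and 4 without those of day 3).

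DNA replication genes were mostly not called. Of 47 tested, 3 rose (6.38%) and 1 fell (2.13%), with a median of 0.05 (0.01 without day 2 replicate 1 to 0.10 without day 2 replicate 2). A count of 1 risen gene was left without day 2 replicate 1, day 2 replicate 3, day 3 replicate 2 or day 3 replicate 3. E2f1, the factor that drives entry into S phase, was the risen gene that kept its call, at 6.08, 5.89 and 5.26 FPKM at day 2, 9.95, 8.32 and 9.02 at day 3 and 38.7 ± 3.83 in unstarved cells. Pcna, the replication clamp, was at 56.4, 59.9 and 53.5 and 57.4, 62 and 65.2 FPKM, with overlapping groups (log2 difference 0.12, SE 0.09, limma adjusted p = 0.39).

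Cdkn2a and Cdkn2b, the genes of the Cdkn2 locus known for inhibitors of cyclin-dependent kinases, fell. Cdkn2a, which encodes p16 and ARF, was at 71.2, 47.5 and 50.8 FPKM at day 2 and 20.2, 25.5 and 25.8 at day 3, 2.29-fold lower (log2 difference -1.20, SE 0.21, limma adjusted p = 0.000247), and Cdkn2b, which encodes p15, at 59, 50.3 and 47.7 and then 31.3, 25.6 and 29.5 FPKM, 1.79-fold lower (log2 difference -0.84, SE 0.10, limma adjusted p = 8.84e-07). The highest day 3 library of either gene was well below the lowest of day 2. Gene FPKM do not separate the p16 and ARF transcripts of Cdkn2a. Cdkn1a (p21) fell from 360.3, 290.4 and 248 to 235, 201 and 198 FPKM (log2 difference -0.49, SE 0.13, limma adjusted p = 0.00985). It did not pass without day 2 replicate 1, its highest library (limma adjusted p = 0.0946). The call was also lost with libraries rescaled to the same sum, with short RNA genes left out, and in a fit of the day 2 and day 3 libraries alone. Cdkn1b (p27), which accumulates in many quiescent cells, differed by -0.10 (limma adjusted p = 0.604), and Ccnd1, cyclin D1, by -0.08 (0.664). Rb1, the pocket protein that holds E2F in check, rose from 11.6, 13.1 and 13.9 to 22, 19.3 and 19 FPKM (log2 difference 0.60, SE 0.10, limma adjusted p = 0.000128). Over the 15 tested inhibitors, D cyclins and pocket proteins, 4 fell (26.7%) and 1 rose (6.67%), and 2 fell without day 2 replicate 1.

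Of 23 tested p53 targets, 7 fell (30.4%) and none rose, with a median of -0.03 that changed sign between libraries left out (-0.09 without day 3 replicate 2 to 0.02 without day 3 replicate 1) and with 4 falling without day 2 replicate 1. Mdm2, the ligase that degrades p53, fell from 76.3, 81 and 79.6 to 55.8, 60.3 and 61.1 FPKM (log2 difference -0.41, SE 0.08, limma adjusted p = 0.000388), and Plk2, a stress-induced kinase, fell 1.42-fold. Gadd45a, a growth arrest gene, fell 1.36-fold.

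Immediate early genes and feedback regulators of the ERK pathway were called in both directions: 9 of 29 tested rose (31%) and 6 fell (20.7%), with a median of 0.12 (0.08 without day 3 replicate 3 to 0.14 without day 3 replicate 2), and 5 rose with replicates 2 and 3 alone, a choice made after seeing the data. Jun, a subunit of the AP-1 factor, was at 56.5, 54.4 and 48.5 FPKM at day 2 and 17, 18.3 and 18.2 at day 3, 2.87-fold lower (log2 difference -1.52, SE 0.10, limma adjusted p = 7.43e-11). Klf10, a zinc finger factor of early TGF-beta responses, was at 5.56, 7.1 and 5.17 and then 1.26, 1.63 and 1.17 FPKM, 2.94-fold lower. Myc fell from 8.99, 7.06 and 8.63 to 5.07, 3.58 and 5.68 FPKM (log2 difference -0.69, SE 0.17, limma adjusted p = 0.00464). Their groups did not overlap in any of the 3 genes, which for Jun the rule for the largest falls required. Among those that rose, Dusp1, a phosphatase of MAP kinases, was at 128, 133 and 128 FPKM and then 245, 218 and 228 (log2 difference 0.83, SE 0.06, limma adjusted p = 6.73e-10), and Spry4, a feedback inhibitor of receptor tyrosine kinases, at 5.59, 7.56 and 6.07 and then 16.4, 14.9 and 16.1 FPKM. Nr4a1, an orphan nuclear receptor, and Maff, a small Maf factor, rose by 1.18 and 1.24 on the log2 scale. Egr1, a direct target of ERK signalling, was at 45.6, 51 and 50.9 and 54.6, 45.8 and 45.5 FPKM and did not pass (log2 difference -0.02, limma adjusted p = 0.949). Dusp10, a phosphatase of the stress kinases p38 and JNK, fell 2.93-fold, from 13.7, 14.7 and 11.6 to 3.8, 3.66 and 4.14 FPKM.

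Genes tied to growth factor withdrawal were called in both directions: of 26 tested FoxO targets and related genes, 7 fell (26.9%) and 4 rose (15.4%), with a median of -0.12 (-0.18 without day 2 replicate 1 to -0.04 without day 3 replicate 1) and with 4 falling without day 3 replicate 1 or day 3 replicate 3. Pik3ip1, an inhibitor of PI3 kinase, was at 8.88, 8.54 and 9.41 FPKM at day 2 and 2.68, 2.63 and 2.7 at day 3, 2.71-fold lower, and Sesn3, a sestrin that restrains mTORC1, fell by 0.93 on the log2 scale. Txnip, an inhibitor of glucose uptake and of thioredoxin, went from 28.1, 26.1 and 26 to 65.7, 69.8 and 61.4 FPKM, 2.4-fold higher (log2 difference 1.26, SE 0.19, limma adjusted p = 2.23e-05). Cited2, a transcriptional coregulator, rose 1.88-fold and Trib2, a pseudokinase, 2.12-fold. Bcl2l11 (Bim), a trigger of apoptosis that FoxO factors can induce, was at 14, 10.1 and 21.6 FPKM at day 2 and 4.27, 4.66 and 4.41 at day 3, 2.85-fold lower (log2 difference -1.51, SE 0.25, limma adjusted p = 7.36e-05).

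Targets of ATF4, the transcription factor of the integrated stress response, included 7 of 31 that fell (22.6%) and 2 that rose (6.45%), with a median of -0.08 that changed sign between libraries left out (-0.14 without day 3 replicate 2 to 0.05 without day 3 replicate 1); without day 2 replicate 2 or without day 3 replicate 3 none rose. Chac1, a glutathione-degrading enzyme, was at 32.7, 25.4 and 32.3 and then 12.5, 12.9 and 12 FPKM, 2.3-fold lower (log2 difference -1.20, SE 0.14, limma adjusted p = 4.87e-07). Slc7a5, a transporter of large neutral amino acids, fell 1.49-fold and Ddit4, an inhibitor of mTORC1, 1.63-fold.

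Inflammatory genes were among the strongest falls. Cxcl1, a neutrophil chemokine, was at 11.4, 8.27 and 7.53 FPKM at day 2 and 1.77, 1.0 and 1.35 at day 3, 4.22-fold lower (log2 difference -2.08, SE 0.29, limma adjusted p = 1.0e-05). Ccl7, a monocyte chemokine, was at 4.17, 3.63 and 1.2 and then 0, 0.40 and 0 FPKM, and Ccl2, another, at 2.12, 1.86 and 1.81 FPKM and listed at 0 in all 3 day 3 libraries. Il1rl1, the receptor for interleukin 33, was far more abundant, at 224, 313 and 265 FPKM and then 58.4, 79.2 and 74.8, 3.73-fold lower (log2 difference -1.90, SE 0.15, limma adjusted p = 6.03e-10). No library of day 3 reached the level of any day 2 library in these 4 genes, which for Cxcl1 and Il1rl1 the rule for the largest falls required. Macrophage markers summed to 2.16 to 2.51 FPKM at day 2 and 0.879 to 2.00 at day 3, with Ptprc, Itgam and Adgre1 at 0 in all 6 libraries. Over 15 tested secreted factors associated with senescence, 6 fell (40%) and 4 rose (26.7%), with a median of -0.42. Those that rose included Icam1, an adhesion molecule for leukocytes, from 13.9, 16.1 and 16.6 to 29.4, 29.7 and 32.1 FPKM (log2 difference 0.93, SE 0.08, limma adjusted p = 1.94e-09), and Stc1, the hormone stanniocalcin, from 0.487, 0.852 and 0.586 to 3.72, 3.85 and 3.4 FPKM. Of 18 interferon response genes, 6 fell (33.3%) and 1 rose (5.56%), with a median of -0.30. Irf1, an interferon-induced transcription factor, fell from 21.9, 19.6 and 21.6 to 8.32, 9.44 and 12 FPKM (log2 difference -1.03, SE 0.14, limma adjusted p = 8.77e-06), and Gbp2, a guanylate-binding protein, fell 2.21-fold.

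Several falls at the lower end had no group of their own in the lists. Klhl40, a kelch protein of the sarcomere, was at 9.02, 11.9 and 7.66 FPKM at day 2 and 1.02, 0.852 and 0.878 at day 3, 5.43-fold lower (log2 difference -2.44, SE 0.19, limma adjusted p = 6.67e-10). Lpcat2, an enzyme that remodels phospholipids, was at 12.8, 12.7 and 15.8 and then 2.4, 2.88 and 2.29 FPKM, 4.18-fold lower. Aldh3a1, an aldehyde dehydrogenase, went from 84.8, 89.4 and 73.3 to 16.2, 31.4 and 21.1 FPKM, 3.6-fold lower. These genes had fully separate groups, as the rule for the largest falls required. Nrep, a small protein tied to myofibroblasts and neurons, fell 3.33-fold, Ggact, which cleaves gamma-glutamylamines, 2.82-fold, and Rgs2, a regulator of G protein signalling, 2.76-fold.

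Lysosomal hydrolases were called about as often as genes in general. Of 34 tested hydrolases, 3 rose and 3 fell (8.82% each, near the 7.83% and 8.58% of all genes), with a median of 0.04 (0.02 without day 3 replicate 2 to 0.06 without day 3 replicate 1). Ctsb, the protease cathepsin B, fell from 1022, 1064 and 990.3 to 738, 843 and 806 FPKM (log2 difference -0.37, SE 0.07, limma adjusted p = 0.000768). Glb1, the beta-galactosidase used to stain senescent cells, was at 52.1, 46.6 and 46.5 and 48.7, 49.2 and 46.7 FPKM (log2 difference -0.0045, SE 0.07). The membrane proteins Lamp1 and Lamp2 differed by 0.10 (SE 0.08, limma adjusted p = 0.468) and 0.11 (SE 0.11, 0.547), and Tfeb, a master regulator of lysosomal genes, by -0.09 (SE 0.17, 0.787). Sort1, the sorting receptor sortilin, rose 1.43-fold and Atp6v0e2, a small subunit of the vacuolar proton pump, 2.23-fold. Over 19 lysosomal membrane proteins 2 rose (10.5%) and 3 fell (15.8%), and of 18 subunits of the vacuolar pump 2 rose (11.1%). Each count was 1 without day 3 replicate 1 or day 3 replicate 3, among others. Of 42 autophagy genes a single one was called, Sqstm1 (p62), the cargo receptor, which fell from 390.1, 373 and 359 to 269, 294 and 294 FPKM (log2 difference -0.39, SE 0.06, limma adjusted p = 5.32e-05).

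In lipid synthesis the fatty acid genes that were called fell. Of 16 fatty acid synthesis and SREBP1 target genes, 6 fell (37.5%) and none rose, with a median of -0.23. The desaturases Fads1 and Fads2 led: Fads1 was at 107, 123 and 125 and then 53.5, 59.8 and 56.3 FPKM, 2.07-fold lower (log2 difference -1.05, SE 0.09, limma adjusted p = 1.80e-09), and Fads2 fell 1.48-fold. Acss2, which makes acetyl-CoA from acetate, fell 1.33-fold. Of 25 cholesterol synthesis and SREBP2 target genes, 3 fell (12%) and 1 rose (4%), and Mvk, mevalonate kinase, fell 1.34-fold. The balance of directions depended on single libraries: without day 2 replicate 2 the list had 3 higher and 1 lower genes, without day 3 replicate 1 none and 1, and with short RNA genes left out 3 and 2. Its median was -0.05 (-0.12 without day 2 replicate 1 to 0.01 without day 2 replicate 2). Hmgcs1, at the start of the pathway, differed by -0.02 (limma adjusted p = 0.914).

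Hypoxia-induced genes were partly higher: 5 of 15 tested rose (33.3%) and 2 fell (13.3%), with a median of 0.24, and 3 rose without day 2 replicate 1 or without day 3 replicate 3. Vegfa, the angiogenic growth factor, was at 109.6, 89.7 and 101 FPKM at day 2 and 223, 189 and 194 at day 3, 2.0-fold higher (log2 difference 1.0, SE 0.10, limma adjusted p = 1.14e-07), and Car9, a carbonic anhydrase, rose 1.7-fold. Plod2, a collagen lysyl hydroxylase, rose 1.47-fold. The falls numbered 1 without day 3 replicate 1 or day 3 replicate 3. Of 17 glycolytic genes, 2 rose (11.8%) and 3 fell (17.6%), with 1 risen without any 1 library of day 3. Their median was -0.06 (-0.14 without day 2 replicate 3 to -0.0027 without day 2 replicate 2). Pfkp, a phosphofructokinase, fell 1.34-fold.

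Antioxidant and pentose phosphate genes were called lower more often than higher, with 8 of 35 tested fallen (22.9%), 1 risen (2.86%) and a median of -0.26 (-0.29 without day 2 replicate 3 to -0.15 without day 2 replicate 1). Pgd, an NADPH-producing enzyme of the pentose phosphate pathway, fell from 172, 171 and 170.4 to 123, 135 and 132 FPKM. Cat, catalase, fell 1.4-fold and Gstp1, a glutathione transferase, by 0.74 on the log2 scale. In iron handling, the transferrin receptor Tfrc rose 1.68-fold while the ferritin heavy chain Fth1 fell from 1318, 1267 and 1221 to 808, 936 and 925 FPKM. Bhlhe40 and Nr1d1, repressors in the circadian clock, fell from 14.7, 15.4 and 19 to 7.19, 5.92 and 6.64 FPKM and from 11.2, 10.4 and 9.67 to 6.57, 6.29 and 6.38 FPKM (log2 difference -0.62, SE 0.10, limma adjusted p = 0.000115). Each of these 7 genes had separate groups. Of 14 iron genes 2 rose (14.3%) and 4 fell (28.6%), with 1 risen when any of the 6 libraries was left out and 2 fallen without day 3 replicate 1 or day 3 replicate 3. Of 14 clock genes 1 rose (7.14%) and 3 fell (21.4%), with none risen without day 3 replicate 1 or day 3 replicate 2.

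**Figure D3:**
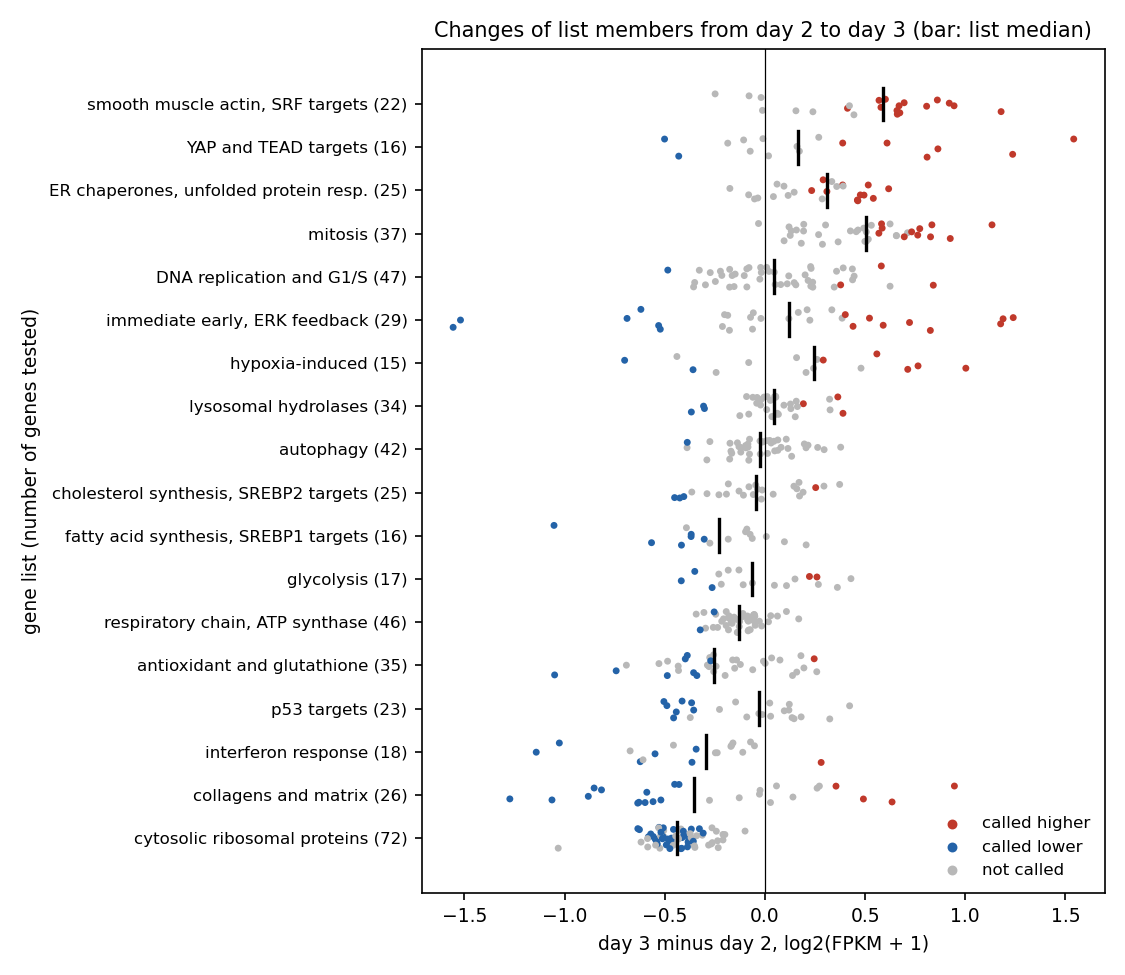
Day 3 minus day 2 in log2(FPKM + 1) for each tested member of 18 gene lists (number tested in brackets); red points are called higher, blue points called lower, gray points not called, and black bars are list medians. The smooth muscle actin (median 0.59), mitosis (0.51) and endoplasmic reticulum chaperone (0.31) lists lie to the right, the ribosomal protein (-0.44) and collagen (-0.35) lists to the left, and autophagy and lysosomal hydrolases close to 0.

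The next 1-day step was smaller by count. From day 3 to day 4, 149 genes were higher and 154 lower (1.67% and 1.72%), in a contrast that shares the day 3 libraries with the step before it. The difference between the 2 steps was tested in the same fit as day 3 minus day 2 less day 4 minus day 3, and 285 genes passed (3.19%), 150 with a positive and 135 with a negative difference. Leaving out day 3 replicates 1, 2 and 3 in turn gave 154, 171 and 136 genes. Among the contractile genes, 7 of 22 differed between the steps: Acta2 differed by 0.94 and then by -0.04 on the log2 scale (difference 0.98, SE 0.22, limma adjusted p = 0.00918), and Srf by 0.66 and then -0.10 (difference 0.76, limma adjusted p = 1.26e-05). Ctgf differed by 1.24 and then by 0.04 (limma adjusted p of the difference = 3.43e-06). For the endoplasmic reticulum chaperones, 8 of 25 differed, and from day 3 to day 4 none of the list rose and 5 fell, with a median of -0.17. Hspa5 differed by 0.54 and then by -0.28 (difference 0.82, SE 0.14, limma adjusted p = 0.000884).

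Glycolytic genes were called mostly in the later step: 11 of 17 tested genes were higher at day 4 than at day 3, with a median of 0.62, and 9 differed between the steps. Pkm, pyruvate kinase, differed by -0.26 in the first step and by 0.56 in the second (difference -0.82, SE 0.12, limma adjusted p = 0.000173). The first of these was not called without day 2 replicate 2 (limma adjusted p = 0.0542) or without day 3 replicate 1 (0.09). The collagens fell in both steps, Col3a1 by 0.59 and then by 1.04, and Col1a1 by 0.56 and then by 0.61; the steps did not differ past the threshold in either gene (limma adjusted p = 0.0552 and 0.932). The ribosomal protein list had a median of -0.10 from day 3 to day 4, with no member called in that step and none differing between the steps.

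Means over the whole course place the step for 8 genes. Jun had means of 106 FPKM in unstarved cells, 53.1 at day 2 and 17.8 at day 3, and between 14.4 and 20.2 FPKM from day 4 on. Cdkn2a had means of 65.3 FPKM in unstarved cells, 56.5 at day 2, 23.8 at day 3 and 16.1 to 24.5 later. Both genes were within their later range by day 3. Pln had means of 24.8 ± 2.41 FPKM at day 3, 50.2 ± 11.6 at day 6 and 100.1 ± 5.98 at day 16 (mean ± SD, n = 3), its highest. Lce1m passed through a peak, listed at 0 in unstarved cells, with means of 78.9 FPKM at day 3, 147 ± 49.2 at day 4 and 0.516 ± 0.516 at day 16. Acta2 stood at 2379.8 ± 90.2 FPKM in unstarved cells, 6609 ± 669.8 at day 3, 6525 ± 1221 at day 10 and 2717 ± 288 at day 16, and Ctgf was highest at day 10, at 6089 ± 166. Hspa5 ranged between 249.1 and 415 FPKM, with the lowest mean of the series at day 2. Ccnb2 had a mean of 9.14 FPKM at day 4, 0.851 at day 8 and 2.71 at day 16.

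**Figure D4:**
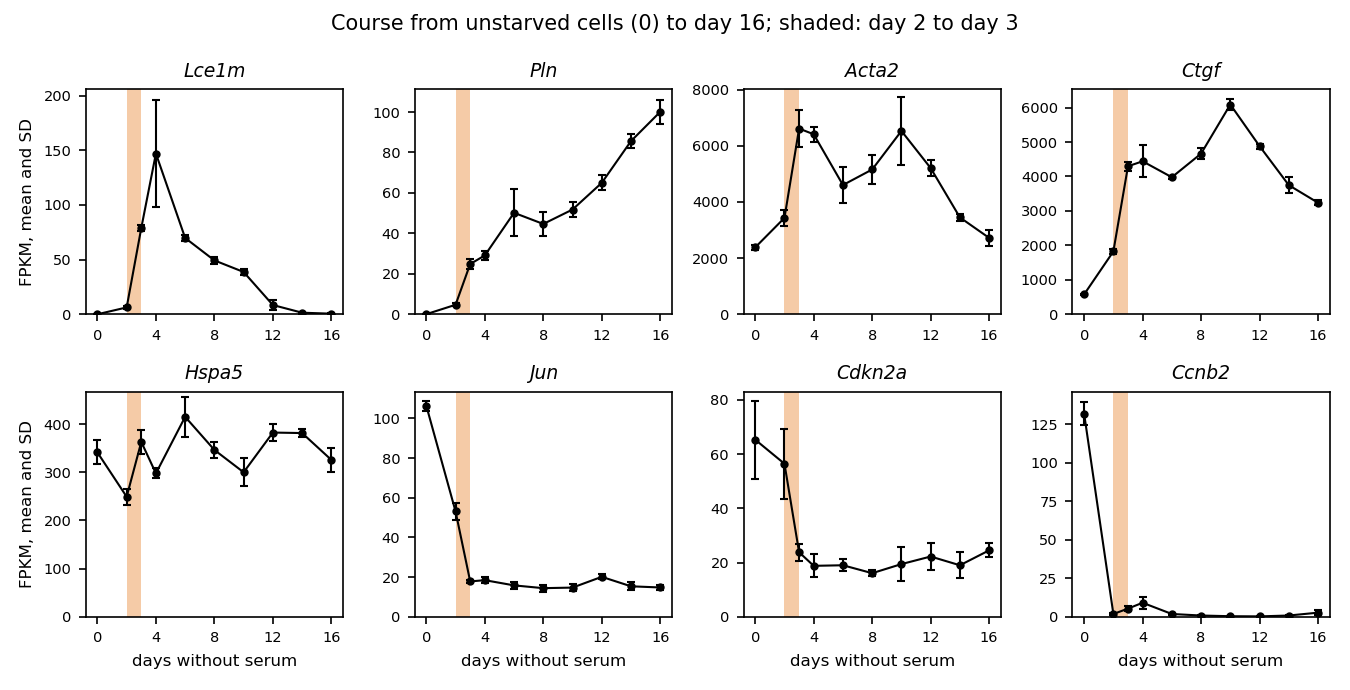
Mean FPKM with SD (n = 3 libraries) against days without serum, 0 being unstarved cells, for 8 genes; the shaded band marks day 2 to day 3 and the y axes differ. Jun and Cdkn2a are near their later level by day 3, Pln climbs to day 16, Lce1m peaks at day 4, and Ccnb2 stays far below its unstarved level.

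A later step, from day 4 to day 6, uses none of the libraries of days 2 and 3. In it 303 genes were higher and 583 lower (3.39% and 6.52% of the genes tested). Of the 700 genes that rose from day 2 to day 3, 47 (6.71%) were higher and 124 (17.7%) lower at day 6 than at day 4, which is 15.5% of the genes higher and 21.3% of those lower in the later step. Of the 767 that fell, 47 (6.13%) were higher and 106 (13.8%) lower, 15.5% and 18.2% of the later calls. For both directions more of these genes were lower than higher in the later step, as was so over all genes.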

How the data were processed

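The authors' deposited table holds FPKM by gene symbol and library. The submitters' processing notes name TopHat2 2.1.1, Cufflinks, Cuffnorm 2.2.1 and the rn6 build; annotation, filters and the scaling between libraries are not given in the sources used here. Without counts or coordinates in the table, no counting interval is given. Libraries were grouped by title. log2(FPKM + 1) of genes averaging at least 1 FPKM over the 30 libraries was modelled with limma 3.58.1 in R 4.3.3, using 1 mean per group for all 10 groups and a variance prior that followed expression level. Two-sided p-values were Benjamini-Hochberg adjusted over 8940 genes at 0.05, and the code was tested on simulated data. The members and all 41 gene lists were chosen with earlier results of these data known, so no p is given for a list. Genes were named by rule: the 12 largest called rises and falls averaging 5 FPKM or more without overlap, the 4 members of each list with the smallest p, the 6 largest step differences in each direction, and a set of fixed genes. Further genes were chosen after their values were seen. Promoters came from RefSeq (GRCr8), whose coordinates are not those of rn6. Some of the named genes are not reported here.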

Additional observations from a re-analysis of the deposited data

Results flagged for a closer look

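For 12 genes the 1-day step from day 2 to day 3 differed from the next 1-day step by the largest amounts among genes past the threshold of limma's test of that difference; the values are on the log2(FPKM + 1) scale. Both steps use the day 3 libraries. For the 9 genes given below without their own p, the limma adjusted p was 1.82e-08 to 6.38e-05. Of the genes that rose more in the first step, Lce1m differed by 3.48 from day 2 to day 3 and 0.83 from day 3 to day 4, a difference of 2.65 (adjusted p = 0.00465 with limma; 0.139 with a pseudocount of 0.1). Rasl11b differed by 2.08 from day 2 to day 3 and -0.30 from day 3 to day 4, a difference of 2.37, Myh1 by 2.19 from day 2 to day 3 and -0.18 from day 3 to day 4, a difference of 2.37, and Pln by 2.19 from day 2 to day 3 and 0.22 from day 3 to day 4, a difference of 1.97. Aoc3, a cell surface amine oxidase, was at 2.33, 2.58 and 3.51 FPKM at day 2 and 8.07, 10.6 and 9.09 at day 3 and differed by 1.43 from day 2 to day 3 and -0.43 from day 3 to day 4, a difference of 1.86. Sema3d differed by 1.72 from day 2 to day 3 and -0.05 from day 3 to day 4, a difference of 1.77; with limma its adjusted p was 0.0157, and 0.0548, 0.0672 and 0.0773 without day 3 replicates 1, 2 and 3. Of those that fell more in the first step, Klhl40 differed by -2.44 from day 2 to day 3 and -0.09 from day 3 to day 4, a difference of -2.35, Lpcat2 by -2.06 from day 2 to day 3 and 0.21 from day 3 to day 4, a difference of -2.28, and Dusp10 by -1.55 from day 2 to day 3 and 0.15 from day 3 to day 4, a difference of -1.70. Cxcl1 differed by -2.08 from day 2 to day 3 and 0.25 from day 3 to day 4, a difference of -2.32, with a limma adjusted p of 0.00798, and of 0.0671 without day 3 replicate 2. Jun differed by -1.52 from day 2 to day 3 and 0.05 from day 3 to day 4, a difference of -1.57. Bhlhe40, the clock repressor, fell and then rose, with -1.19 from day 2 to day 3 and 0.64 from day 3 to day 4, a difference of -1.83. Groups of 3 libraries are too small for a test of single outlying libraries.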

How the results depend on the processing

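The 700 higher and 767 lower genes were recomputed with other pseudocounts, filters, variance models, scalings and sample sets. Fitted on the 6 libraries alone, 461 genes were higher and 492 lower, and 7 endoplasmic reticulum chaperones and 20 ribosomal protein genes were called in place of 11 and 35; that fit has fewer residual degrees of freedom. Rescaling to a sum of 1000000 FPKM gave 806 higher and 510 lower, and leaving out short RNA genes 1097 and 516, so the higher share of the called genes went from 47.7% to 61.2% and 68%. Leaving out 1 library at a time gave 492 to 634 higher and 494 to 692 lower genes, 136 to 266 genes that differed between the steps, 4 to 9 mitosis genes and 19 to 38 ribosomal protein genes. Mitosis genes called higher numbered 2 with a pseudocount of 0.1 and 7 with a mean of at least 5 FPKM. With replicates 2 and 3 only, an alternative chosen after seeing the data, 119 genes differed between the steps and 6 mitosis genes rose. With the replicate number as a block in the fit of all groups, 1017 genes were higher, 1050 lower, 583 differed between the steps and 58 ribosomal protein genes fell; the block in the 6 libraries gave 586 and 646. The labels do not say that numbers pair libraries, and the main fit did not treat the numbers as pairs. Same-numbered deviations correlated at 0.239, 0.112 and 0.034, and day 2 replicate 3 correlated best with day 3 replicate 2 (0.151). Deviations from means of 3 libraries are tied to each other, so these correlations cannot decide whether same-numbered libraries belong together. Depth relative to day 2 replicate 1 was 0.899 to 1.24 in the replicate 1 libraries of the 10 groups and 0.290 to 0.642 in the others. What the numbers share was not tested. Several list medians moved by over 1.5 times with the low-value filter or pseudocount: mitosis was at 0.22 with a pseudocount of 5, and the senescence and interferon lists at -0.16 and -0.17 over members averaging at least 5 FPKM. Under rescaling to the same sum or without short RNA genes, the autophagy, cell cycle inhibitor, p53, cholesterol and tricarboxylic acid cycle medians turned positive. Without short RNA genes, the glycolysis, ribosome biogenesis, proteasome, ATF4 and iron handling medians did so as well. The contractile and collagen counts stayed within 12 to 16 and 10 to 13 under every alternative. Of 196 called genes recomputed singly, 139 kept the call under every alternative, 57 lost it under at least 1, and none changed sign. The cause was not tested for any of these shifts. The step difference cannot be fitted with the 6 libraries alone, since it needs day 4. Depth could be compared only relatively, so no counting error could be put on low FPKM values such as those of the mitosis genes.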
